A study of Homo sapiens with 4 samples.

Results

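The MYC, MAX and MXD genes encode a family of basic helix-loop-helix leucine zipper transcription factors. They were examined as the rows of the TT-seq table whose gene name was one of 10 members, *MYC*, *MYCL*, *MAX*, *MXD1*, *MXD3*, *MXD4*, *MXI1*, *MNT*, *MGA* and *MLX*. Of the 10147 genes in the table, 8 are members. *MXD4* and *MGA* have no row and were not analysed here. All 8 members with a row passed the filter of at least 10 reads.

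The samples were K562 cells, a human chronic myelogenous leukemia line, edited so that the IWS1 protein carries an N-terminal dTAG, a degradation tag bound by the ligand dTAG7. IWS1 is a factor that travels with elongating RNA polymerase II. The labels list 2 dIWS1 samples, treated with 500 nM dTAG7 for 1 h to deplete IWS1, and 2 control samples, treated with the solvent DMSO for the same time. Both groups carry the tag on IWS1, all samples come from the edited line, and each started from the same number of cells. The comparison asks how RNA synthesis changes soon after IWS1 is lost. TT-seq answers this by sequencing RNA that took up 4-thiouridine (4sU) in a short pulse, here 5 min at 500 µM, so the values follow synthesis over introns and exons rather than the amount of mature mRNA.

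Proteins of this family act as dimers. MAX is the common partner of MYC and MYCL, which activate genes, and of MXD1, MXD3, MXI1 and MNT, which recruit SIN3 corepressors and histone deacetylases, and both kinds of dimer bind the E-box, a motif whose preferred form reads CACGTG. MLX is a MAX-like protein that pairs with MLXIP (MondoA) and MLXIPL (ChREBP), the sensors of glucose-derived metabolites, and with some MXD proteins. *MYC* mRNA and protein are short-lived, and in K562 cells MYC keeps proliferation going, whereas MXD1 and MXI1 are linked to differentiation.

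E-boxes in front of member genes are shown because the proteins of this network bind that motif. RefSeq promoter windows of GRCh38.p14, which run from 250 bases before to 50 bases after a gene start, were found for 7 of the 8 members with a row, 10 windows in all, and none was found for *MYC*. The palindrome CACGTG reads the same on both strands and occurs in 7.26% of all 35116 windows. It is in 2 of the 10 windows found here, those of *MLX* and *MNT*. In *MLX* it begins 50 bases before the gene start (chr17:42567038-42567067, plus strand) and in *MNT* 193 bases before it (chr17:2401236-2401265, minus strand). Below, the E-box is in capitals and the flanks on each side are in lower case, 5′ to 3′.
MLX: gcgggcgcgggtCACGTGggcacgccaccc
MNT: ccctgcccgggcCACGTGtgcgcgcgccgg
Every window of the other 5 genes lacks CACGTG. The looser form CANNTG, which includes CACGTG, is in 68.7% of all windows. Of the 7 genes, 6 have it in at least 1 window, all but *MAX*. A gene with several windows needs a match in only 1, so this count of genes is not comparable with a share of windows. *MXI1* has 1 match over its 3 windows. A match describes letters only, and binding was not measured.

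The reads behind the deposited means were recovered as whole numbers for 3 different library columns. Among them 1 is the control, which enters the means with the weight of 2, and 2 are dIWS1, named column 1 and column 2 here because nothing ties them to a replicate. The control is counted as 1 sample, so spread can be seen between the dIWS1 columns and not between controls. The columns held 20684301 to 29832118 reads in genes. Scaled by the spike-in size factors, column 1 divided by column 2 gave a median log2 ratio of −0.12 with an SD of 0.13 over the 8900 genes with a mean over 100. For each ratio to control below, both dIWS1 columns share the same control column. *IWS1* itself went from 3684 reads in the control to 2334 and 2427 in the dIWS1 columns, with a log2 ratio of −0.55 (standard error 0.15, adjusted p = 0.000882), and since dTAG7 acts on the protein this value does not measure the depletion. All 11 erythroleukemia markers looked for, such as *GATA1* and *TAL1*, have a row, and none of 8 markers of other cells, such as *CD3E* and *ALB*, has one. A missing row does not show that a gene is silent, because the study describes removing overlapping genes as well as weakly read ones. Some rows with few reads remain, since 10007 of the 10147 genes in the table had at least 10 reads.

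After 1 h of IWS1 depletion the network split into genes with lower synthesis and genes near the control. *MXD3*, *MYCL*, *MLX*, *MNT* and *MAX* fell, to between 56.5% and 77.6% of the control level. *MYC*, *MXD1* and *MXI1* did not pass the test, at 96.3%, 103% and 113% of control. So 5 of 8 members were lower and 0 higher (limma voom on recovered reads, Benjamini-Hochberg adjusted p under 0.05 over 10007 genes tested). Over all genes 65.0% were lower (6505 genes) and 0.130% higher (13 genes), so the members' share of lower genes, 62.5%, was near the background. No member above 0 had an unadjusted p under 0.05, and limma with a mean-variance trend on log2 values also found 0 higher. The median log2 ratio was −0.41 over the 8 members and −0.42 over all genes tested.

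**Figure D1:**
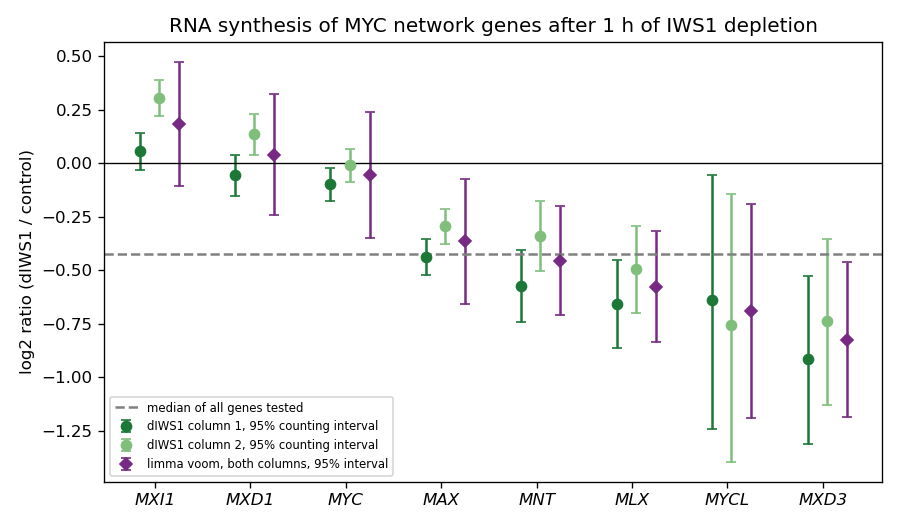
Log2 ratio (dIWS1 over control, vertical axis) of the 8 members in dIWS1 column 1 and column 2, each with a 95% exact counting interval, and from limma voom with both columns and its 95% interval. The dashed line is the median gene at −0.42, and *MYC*, *MXD1* and *MXI1* lie above it in each column and with their whole limma intervals. The intervals are not adjusted for the number of genes, and *MYC* did not pass the adjusted test against the median gene.

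*MYC* encodes the growth-promoting activator of the network. Its RefSeq span covers 7.518 kb of chromosome 8, from 127735434 to 127742951 on the plus strand, and its canonical transcript has 3 exons. The control had 2904 reads, dIWS1 column 1 had 2667 and column 2 had 2626. After scaling these became 2876, 2685 and 2856 reads. Column 2 thus lay next to the control and column 1 slightly under it. The log2 ratio was −0.10 in column 1 (95% exact binomial interval −0.18 to −0.02, which covers counting error only, as do all such intervals here) and −0.01 in column 2 (−0.09 to 0.07). Over both columns the limma voom estimate was −0.05 (95% interval −0.35 to 0.24, adjusted p = 0.743), so no change was detectable. The level of the median gene, −0.42, lay outside this interval, which is not adjusted for the number of genes. Set against the median gene with that adjustment, *MYC* did not pass, as given below.

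*MYCL*, the L-MYC gene on chromosome 1 (39895428 to 39901917, minus strand, 2 exons in the canonical transcript), was the most weakly read member. The control had 65 reads, column 1 had 41 and column 2 had 35. Both dIWS1 columns were below the control, and the counting intervals of the log2 ratios were wide, −1.24 to −0.06 in column 1 and −1.39 to −0.14 in column 2. The estimate over both was −0.69 (standard error 0.25, adjusted p = 0.0132). The *MYC* and *MYCL* spans are of similar length, 7.518 and 6.49 kb, and per kb of span *MYCL* was read at 0.0259 of the *MYC* level in the control and at 0.0178 and 0.0154 in the dIWS1 columns.

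*MAX*, the gene of the shared dimer partner, spans 96.595 kb of chromosome 14 (65006101 to 65102695, minus strand, 5 exons in the canonical transcript) and is the longest of the 8 members with a row. The control column held 2775 reads, column 1 2015 and column 2 2059. Scaled to the spike-ins these were 2749, 2029 and 2239 reads, so both dIWS1 columns lay under the control. The log2 ratio was −0.44 in column 1 and −0.30 in column 2, with both counting intervals below 0, and −0.37 over both (standard error 0.15, adjusted p = 0.0243). With limma on log2 values the ratio was −0.37 as well and the adjusted p was 0.0668, which ends the call. The adjusted p of *MAX* ranged from 0.0102 to 0.857 over the alternatives. The lowest came with the control column entered 2 times, which counts 1 library as 2. The highest came relative to the median gene, which is a different question.

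Among the genes of MAX-bound repressors, *MXD1* and *MXI1* did not pass the test. *MXD1* (chromosome 2, 69915109 to 69942945, plus strand, 27.837 kb) had 1780 reads in the control, against 1683 for column 1 and 1780 for column 2. Scaled, these were 1763, 1695 and 1936 reads. The dIWS1 columns lay on either side of the control, with log2 ratios of −0.06 (−0.15 to 0.04) and 0.13 (0.04 to 0.23). The estimate over both columns was 0.04 (95% interval −0.24 to 0.32, adjusted p = 0.804).

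*MXI1*, a tumor suppressor candidate that antagonizes MYC, spans 79.761 kb of chromosome 10 (110207605 to 110287365, plus strand). The control had 2184 reads, column 1 had 2231 and column 2 had 2457, or 2163, 2246 and 2672 after scaling. Both dIWS1 columns were above the control, by 0.05 on the log2 scale in column 1 (−0.03 to 0.14) and by 0.30 in column 2 (0.22 to 0.39). The columns differed from each other by −0.25 (column 1 over column 2), the widest gap among the members. The estimate was 0.18 (95% interval −0.11 to 0.47, adjusted p = 0.261), so the rise did not pass the test. In raw reads *MXI1* is the member whose dIWS1 columns both exceed the control, although the control column holds more reads in genes than either.

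*MXD3*, a family member expressed in proliferating cells, gave the lowest value. It lies on chromosome 5 (177305499 to 177312752, minus strand, 7.254 kb) and went from 161 reads in the control to 84 and 88 in the dIWS1 columns. Both dIWS1 columns lay well under the control, since 22.0 scaled reads per kb became 11.7 and 13.2. The log2 ratios were −0.91 (−1.31 to −0.53) and −0.74 (−1.13 to −0.35), and −0.82 over both columns (standard error 0.18, adjusted p = 4.8e-05). *MXD1* and *MXI1* thus had estimates above 0 and *MXD3* below it, with limma intervals that do not overlap (upper bound of *MXD3* −0.46, lower bounds −0.24 and −0.11). The difference between these genes was not itself tested.

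*MNT* encodes a MAX-bound repressor found in most cell types, and *MLX* the partner of the glucose sensors. *MNT* (chromosome 17, 2384073 to 2401060, minus strand, 16.988 kb) went from 746 reads in the control to 493 and 537 in the dIWS1 columns. Its log2 ratio was −0.57 in column 1 and −0.34 in column 2, and −0.46 over both (standard error 0.13, adjusted p = 0.00138). *MLX* (chromosome 17, 42567100 to 42573203, plus strand, 6.104 kb, 8 exons in the canonical transcript) went from 516 to 322 and 333. The ratios were −0.66 and −0.50, and −0.58 over both (standard error 0.13, adjusted p = 7.2e-05). Both dIWS1 columns lay under the control in each gene. These are the genes whose promoter windows hold the CACGTG motifs printed above. Windows of the other members with a row, both those that fell and *MXD1* and *MXI1*, which did not pass the test, lack CACGTG. No window was found for *MYC*, and a link between the motif and the change was not tested.

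Since most genes fell under spike-in scaling, each member was also set against the median gene by subtracting −0.42 from its log2 ratio. Relative to that gene 2 of 8 members were higher, *MXI1* by 0.60 (adjusted p = 0.0019) and *MXD1* by 0.46 (adjusted p = 0.0242), and 0 were lower (25.0% higher and no member lower, against 2.94% of all genes higher, 294 genes, and 4.86% lower, 486 genes). *MYC* lay 0.37 above the median gene and did not pass (adjusted p = 0.112, with an unadjusted p of 0.014). *MAX* and *MNT* lay close to it, at 0.06 (adjusted p = 0.857) and −0.03 (adjusted p = 0.912). *MLX*, *MYCL* and *MXD3* were at −0.15, −0.27 and −0.40, and none passed. Of these, *MXD3* had an unadjusted p of 0.0295. In this fit the gap of 0.12 between the scaled dIWS1 columns still counts as spread. When the columns were instead scaled by their total reads in genes, the median gene moved from −0.42 to 0.02, and *MYC* (0.39, adjusted p = 0.00017), *MXD1* (0.48, adjusted p = 4.7e-05) and *MXI1* (0.62) all passed as higher, beside 18.3% of all genes. A change of scaling moves all genes by nearly the same amount, so the distance of *MYC* from the median gene is alike by construction. Its adjusted p ran from 0.00017 to 0.79 over all alternatives. Each p tests against 0 on the scale of its fit, and the spread between the dIWS1 columns also changes with the scaling.

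**Figure D2:**
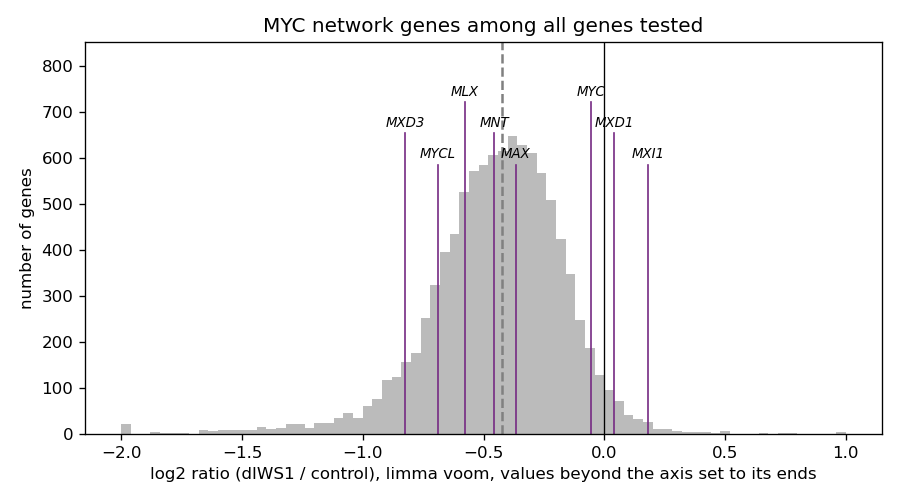
Histogram of the limma voom log2 ratios (dIWS1 over control, horizontal axis) of the 10007 genes tested, with the number of genes on the vertical axis and a line for each member. The dashed line is the median at −0.42, and *MXI1*, *MXD1* and *MYC* stand in the upper tail, *MXD3* in the lower one.

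As a description of the same ratios, *MXI1* stood at percentile 99.3 of all genes tested, *MXD1* at 97.6 and *MYC* at 94.7. *MAX* stood at 59.2, *MNT* at 45.0 and *MLX* at 27.6. *MYCL* at 15.5 and *MXD3* at 7.78 were the lowest. With the genes split into 4 classes of span at the bounds used in the study, *MYC*, *MYCL*, *MXD3* and *MLX* all belong to the shortest class, whose 2326 genes had a median of −0.48, and *MYC* lay 0.43 above that median while *MXD3* lay at −0.34 and *MLX* at −0.09 from it. *MAX* and *MXI1* are both in the longest class (median −0.49 over 2453 genes), and lay 0.12 and 0.67 above it.

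Levels were compared between genes as scaled reads per kb of RefSeq span. *MYC* led in every column, with 383 scaled reads per kb in the control and 357 and 379.9 in the dIWS1 columns. *MLX* followed in the control at 83.7, then *MXD1* at 63.3, *MNT* at 43.5, *MAX* at 28.5, *MXI1* at 27.1, *MXD3* at 22.0 and *MYCL* at 9.92. In both dIWS1 columns *MXD1* (60.9 and 69.5) stood ahead of *MLX* (53.1 and 59.3), and *MXI1* (28.2 and 33.5) ahead of *MAX* (21.0 and 23.2). The control levels of *MAX* and *MXI1* differed by less than the distance between the dIWS1 columns of *MXI1*. *MYC* made up 57.9% of the summed level of the 8 members in the control, and 62.9% and 61.4% in the dIWS1 columns. With the summed exons of GENCODE release 44 as the length, *MYC* and *MYCL* kept ranks 1 and 8, while *MAX* rose from rank 5 to 2 and *MLX* went from 2 to 5 in the control. By that length *MXD1* was ahead of *MLX* in all 3 columns, so their change of order holds for span only, whereas *MXI1* again stood behind *MAX* in the control and ahead of it in both dIWS1 columns.

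**Figure D3:**
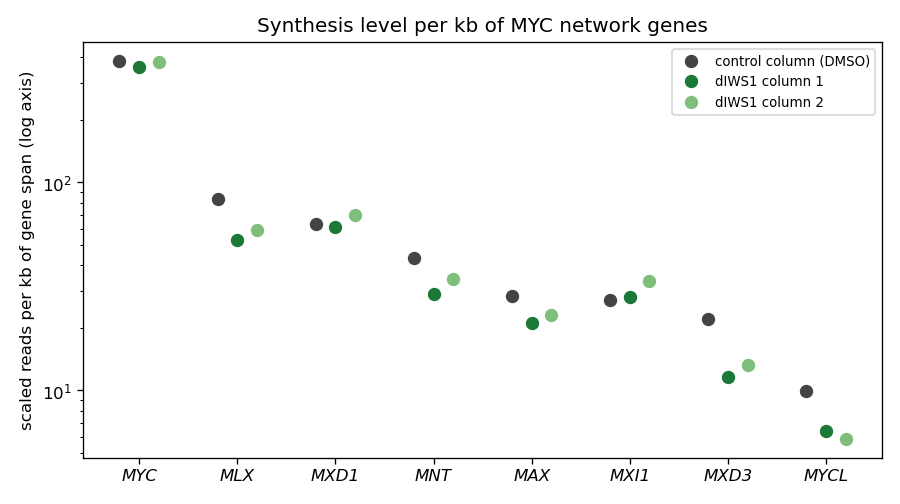
Scaled reads per kb of gene span (vertical log axis) of the 8 members, ordered by the control column, with 1 point for each of the control column and dIWS1 columns 1 and 2. *MYC* lies at 357 to 383 in all 3 columns, and the *MXD1* and *MXI1* points for dIWS1 pass those of *MLX* and *MAX*.

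Expressed as a ratio to *MAX* in the same column, which needs no scaling between columns, *MYC* had 13.4 times the reads per kb of *MAX* in the control, 17.0 times in column 1 and 16.4 times in column 2. For *MXI1* the ratio to *MAX* was 0.953 in the control, 1.34 in column 1 and 1.45 in column 2, and for *MXD1* it was 2.23, 2.90 and 3.00. For *MXD3* it went the other way, from 0.773 to 0.555 and 0.569. The *MNT* to *MAX* ratio stayed between 1.39 and 1.53 in the 3 columns. These ratios describe the 3 columns, without an interval or a test, and do not show which gene of a pair moved. Whether the genes changed unequally was not tested.

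The MLX branch was listed with its partners and with *TXNIP* and *ARRDC4*, genes that MLX dimers switch on. *MLXIP* (6257, 4352 and 4432 reads in control, column 1 and column 2) and *MLXIPL* (952, 640 and 607) fell, by 0.43 (adjusted p = 0.00902) and by 0.53 (adjusted p = 0.000263) on the log2 scale. The targets did not pass, with −0.13 for *TXNIP* (adjusted p = 0.445) and −0.01 for *ARRDC4* (adjusted p = 0.96). So 2 of 4 genes were lower and 0 higher, beside 65.0% and 0.130% of all genes, with a median of −0.28 against −0.42 for all genes. Relative to the median gene *ARRDC4* was higher by 0.42 (adjusted p = 0.0262).

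Of 11 corepressor genes used by MXD and MNT proteins, 10 have a row, of which 6 were lower (beside 65.0% of all genes) and 0 higher (median −0.37 against −0.42). *SIN3A* and *SIN3B*, the scaffolds that the MXD proteins bind, had log2 ratios of −0.48 and −0.55, and *NCOR1* was the lowest at −0.66. The deacetylase genes *HDAC1* and *HDAC2* did not pass, at −0.29 and −0.18. *SAP30*, a SIN3 complex subunit with 159 control reads, had 169 and 177 reads in the dIWS1 columns (0.20, adjusted p = 0.275), and relative to the median gene it was higher by 0.62 (adjusted p = 0.00641). Of 13 MYC cofactor genes with a row, 12 were lower (92.3%, against 65.0% of all genes) and 0 higher (against 0.130%), with a median of −0.53 against −0.42. Whether the cofactors differ from other genes was not tested. *RUVBL1*, a helicase-like subunit of chromatin complexes that MYC recruits, went from 2960 reads to 1145 and 1155 and fell by 1.28, also relative to the median gene (−0.86, adjusted p = 8.3e-07). *SMARCB1*, *HCFC1* and *KAT5* were lower, with log2 ratios of −0.75, −0.73 and −0.62, and *ACTL6A* was the one that did not pass.

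Of 8 genes with a row that set the turnover of the MYC protein, 4 were lower (beside 65.0% of all genes) and 0 higher (median −0.29), with *GSK3B*, the kinase that marks MYC for ubiquitination, at −0.56 and *USP36* at −0.53, and with *SKP2*, *CUL1*, *USP28* and *PIM1* not passing. The MGA protein is a scaffold of the PRC1.6 complex, and of 13 genes of that complex with a row, MGA itself not counted, 6 were lower (46.2%) and 0 higher (median −0.29), again beside 65.0% of all genes. The lowest was *TFDP1* at −0.75, and *RNF2*, *RYBP* and *YAF2* did not pass, at −0.11, −0.12 and −0.13. Of 34 textbook targets of MYC, 20 have a row, of which 11 were lower (55.0%, against 65.0% of all genes) and 0 higher (median −0.37). *TERT* (513, 305 and 276 reads), *APEX1* and *E2F1* had ratios of −0.74, −0.73 and −0.61, while *NPM1* (−0.08), *TFAM* (−0.12) and *PKM* (−0.13) did not pass. Relative to the median gene none of the targets, turnover genes or PRC1.6 genes passed in either direction. *WDR5*, *HDAC1* and *HDAC2* stand in more than one list.

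**Figure D4:**
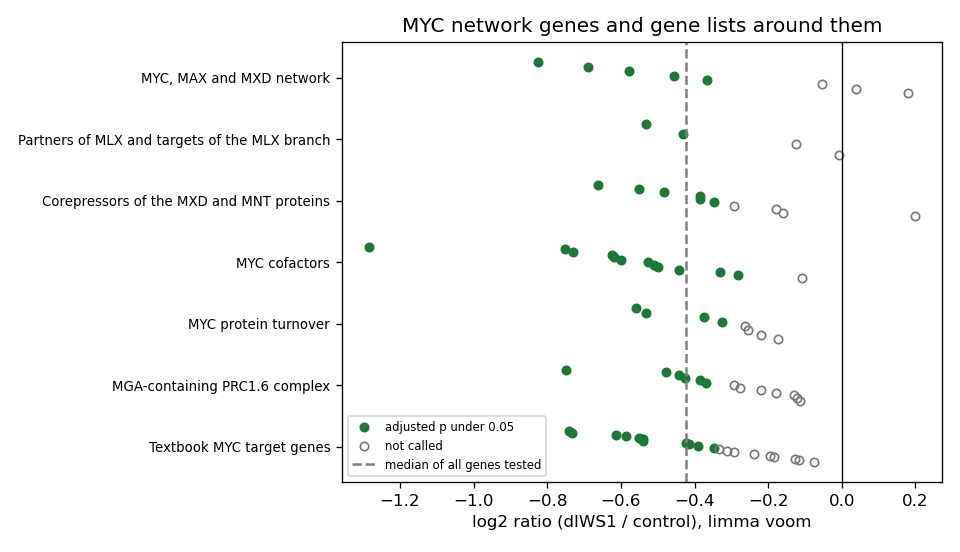
Log2 ratios (dIWS1 over control, horizontal axis) from limma voom for the 8 members and for the listed genes around them, 1 point per gene, filled where the adjusted p was under 0.05. The dashed line is the median of all genes tested at −0.42, the members reach from −0.82 to 0.18, and the lowest point among the cofactors is *RUVBL1* at −1.28.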

How the data were processed

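TT-seq reads were aligned by the authors with STAR 2.6.0 to GRCh38 with spike-in sequences and counted per RefSeq gene by strand, after overlapping genes and genes with low median reads per kb had been removed. The deposited signal is the mean over 4 library columns of counts divided by the size factors that the authors took from spike-in reads with DESeq2. Whole reads were recovered from these means for all 10136 genes with a mean above 0 (0 of 300 slightly shifted means could be split). The deposited log2 fold change served only to bound this search and to show, as dIWS1 over control, which columns were which. The authors' fold changes, standard errors and p-values are not reported. The study's text describes 2 control replicates, but the means hold 1 control column entered 2 times, counted once here. Size factors were 1.01, 0.993 and 0.919. Reads were fitted with limma voom (limma 3.58.1, R 4.3.3), two-sided, with Benjamini-Hochberg adjustment over 10007 genes with at least 10 reads. No spread between controls enters the fit, and p-values measure the spread between 2 dIWS1 columns, moderated across genes. Of the table's genes, 10098 were found in RefSeq. Values came from Python 3.11.15 with scipy 1.17.1. The named genes are the members, *IWS1*, fixed lists of partners, cofactors and targets, and the 3 genes nearest to *MYC* and *MNT* in both log2 ratios. Members and lists were chosen with earlier results of these data known. Alternatives were scaling, filter, test, pseudocount, threshold, minimum change, single columns, length and motif.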

Additional observations from a re-analysis of the deposited data

How the results depend on the processing

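No paired analysis was possible because the recovered columns carry no replicate number and the control is 1 column. Scaled by total reads in genes, 1350 genes were lower and 1836 higher, with 0 members lower and 3 higher. Recentred on the median gene, 486 were lower and 294 higher, with 0 members lower and 2 higher. Both settings move all genes by nearly the same amount by construction, and *MYC* (0.39 and 0.37) and *MAX* (0.075 and 0.058) changed sign. With total reads the spread between the dIWS1 columns changed as well, so the shift alone does not set the counts. Relative to the median of their length class (chosen after seeing the data) *MYC* was at 0.43 and *MAX* at 0.12. The 13 higher genes became 8 with limma on log2 values, with a pseudocount of either 0.5 or 5, and 55 with the control column entered 2 times. They became 6 at an adjusted p under 0.01, 21 under 0.1 and 6 with a log2 change of at least 0.5. The 6505 lower genes became 3767 at that minimum change, and the 5 lower members became 3 there and 3 at an adjusted p under 0.01, where stricter criteria lower the counts. *MXD1* was at −0.057 in dIWS1 column 1 alone and at 0.13 in column 2 alone. Depth limits *MYCL* most, with 65, 41 and 35 reads.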

Other observations

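The nearest gene with a tested row on each side of a member was looked at after the values were seen. Overlapping genes had been removed, so a nearer gene may lack a row. Only some of these neighbours are given here. Upstream of *MNT*, 5.92 kb from its span, lies the lncRNA gene *LOC284009*, which went from 250 reads in the control to 82 and 77 in the dIWS1 columns. Its log2 ratio was −1.57 (standard error 0.17), or −1.14 relative to the median gene (limma voom, adjusted p = 1.56e-08), against −0.46 for *MNT*. On the other side of *MNT* and nearer to it, at 3.02 kb, *SGSM2* was at −0.49, close to *MNT*. Next to *MXD3*, at 1.78 kb, *RAB24* had 257, 119 and 142 reads in the same order and a ratio of −0.91, or −0.48 relative to the median gene (adjusted p = 0.0347), beside −0.82 for *MXD3* itself, while *LMAN2* on the other side, at 18.8 kb, was at −0.41. *COASY*, 0.823 kb from *MLX*, was at −0.67, beside −0.58 for *MLX*, and *FAM134C* on the other side, at 6.30 kb, was at −0.29. Next to *MXI1*, *SMNDC1* at 3.37 kb had 1248, 1028 and 1096 reads and a ratio of −0.15 (adjusted p = 0.306), and *TRIT1*, 11.9 kb from *MYCL*, was at −0.25 where *MYCL* was at −0.69. Next to *MXD1*, *SNRNP27* at 9.87 kb was at −0.23 and *PCBP1* at 145 kb was at −0.55, where *MXD1* was at 0.04. Whether neighbouring genes share a response was not tested.

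In the log2 ratios of the dIWS1 columns, 2 values per gene, the genes nearest to *MYC* among the 5249 genes with at least 1000 control reads were *HNRNPH1* (distance 0.00768), *CMTM7* (0.0122) and *RRAS2* (0.0128). The nearest to *MNT* were *PRR11* (0.00413), *POLD3* (0.00424) and *XRCC6* (0.00525). With so few values per gene such closeness is common. Of these 5249 genes, 49 lay within 0.05 of *MYC*, with *MYC* itself counted, and 142 within 0.05 of *MNT*, which has too few control reads to be counted.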
